A study of Mus musculus with 4 samples.

Results

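The insulin-like growth factor (IGF) genes were examined in cultured periosteal cells, as a set of 10 genes comprising the ligands *Igf1* and *Igf2*, the receptors *Igf1r* and *Igf2r*, and the binding proteins *Igfbp2* to *Igfbp7*. They were chosen by gene symbol, and each of the 10 was found once among the 45802 symbols of the deposited table, with a value in every library. Total RNA was sequenced in 4 libraries, with 2 for each of the populations PDGFRα reporter+ and PDGFRα reporter-. All cells came from male PDGFRα-mTmG mice that were given daily doses of tamoxifen (150 mg/kg) over 5 days at 2 months of age. In these animals the *Pdgfra* promoter drives CreER, and tamoxifen switches cells with Cre activity from membrane tdTomato to membrane GFP. The reporter therefore records promoter activity at the time of tamoxifen and in the descendants of those cells. Periosteal cells were released from femurs and tibias 14 days after the last injection, when the mice were 9 to 10 weeks old. They were grown for 1 passage in medium with 15% serum and 10 ng/mL bFGF. Cells negative for CD31, CD45 and Ter119 were then sorted into GFP+ (PDGFRα reporter+) and tdTomato+ (PDGFRα reporter-) populations. According to the sample labels, 3 to 6 mice were pooled for each population, so that variation between single animals was not measured.

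IGF1 and IGF2 are secreted peptides that signal mainly through the tyrosine kinase receptor encoded by *Igf1r*, whereas the receptor encoded by *Igf2r* takes up IGF2 and delivers it to lysosomes. The binding proteins hold the ligands in the medium and the matrix, where they can prolong, block or localize signaling, and proteases such as pappalysin release the ligand by cutting the binding protein. In bone, IGFs made by cells of the osteoblast lineage are known to support bone formation, and several binding proteins are stored in the bone matrix.

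In the table the libraries of each population carry the numbers 2 and 3, and the labels number the replicates 1 and 2, so that libraries are named here by population and table number. What the number stands for is not given in the sources used here. The deposited values are on a log2 scale after quantile normalization, and the linear unit is not stated, so that levels are compared between libraries for 1 gene and not between genes. Depth is unknown, and no counting error was given. Between 15423 and 15605 genes had a value per library. The 10 stromal markers examined, including *Pdgfra*, *Pdgfrb*, *Prrx1* and *Col1a1*, had values in all libraries. On average 3 were higher and 7 lower in PDGFRα reporter+ libraries, with a median log2 difference of -0.096. *Ctsk* (0.39) lay above and *Ly6a* (-0.21) below without overlap, beside 7.59% and 8.1% of all genes. *Postn* had a difference of -1.14, with populations that overlapped. *Pdgfra* itself was at 7.78 and 7.62 in PDGFRα reporter+ and at 7.87 and 7.44 in PDGFRα reporter- libraries, with populations that overlapped. Of the 5 osteoblast genes measured in every library, 4 were higher and 1 lower on average in PDGFRα reporter+ libraries. The median log2 difference was 0.09. The lower one, *Spp1* (-0.00015), was at 11.73 in library 2 of both populations, the highest value that normalization allowed. *Runx2* (0.012) and *Sp7* (0.092) also differed little. For the other 2, *Alpl* and *Ibsp*, PDGFRα reporter+ lay above without overlap, as for 7.59% of all genes. Markers of other cells were also present. The 15 macrophage genes had a summed log2 level of 8.02 and 8.24 in PDGFRα reporter+ and of 6.67 and 7.59 in PDGFRα reporter- libraries. For 9 of the 14 measured in every library, PDGFRα reporter+ lay above without overlap, beside 7.59% of all genes. Among these 9, *Lyz2* was at 7.65 and 7.88 against 6.27 and 7.25. The populations overlapped for *Csf1r*, at 1.08 and 1.60 against -0.11 and 1.13. The 10 endothelial genes had a summed log2 level of 1.55 and 1.72 in PDGFRα reporter+ and of 2.20 and 2.52 in PDGFRα reporter- libraries, with *Pecam1* at -4.68 and -4.79 against -1.99 and -1.11. Of these 10 genes, 8 were lower on average in PDGFRα reporter+ libraries, and 2 (*Vwf* and *Cd93*) were slightly higher. The median log2 difference was -0.65. PDGFRα reporter+ lay below without overlap for 4 of the 10, beside 8.1% of all genes. The 8 smooth muscle and pericyte genes summed to 4.29 and 5.27 in PDGFRα reporter+ and to 5.52 and 5.84 in PDGFRα reporter- libraries. Of them, 7 were lower on average in PDGFRα reporter+ libraries and 1 (*Rgs5*) was higher. PDGFRα reporter+ lay below without overlap for 2 of the 8, beside the same 8.1% of all genes. The skeletal muscle genes summed to -0.77 and -1.59 in PDGFRα reporter+ and to 1.26 and -0.45 in PDGFRα reporter- libraries. *Des* and *Acta1*, the 2 measured in every library, were lower without overlap, a pattern of 8.1% of all genes. Of the defining genes, *Myod1* and *Myog* had low values in 3 libraries each (-5.34 to -1.71), and *Pax7* and *Myf5* had none. The neutrophil gene *S100a8* was at -4.21 and 1.39 in the PDGFRα reporter+ libraries, had no value in PDGFRα reporter- library 2 and was at -1.14 in library 3, whereas *S100a9* had no value in any library. Of the defining lymphocyte and erythroid markers, *Ms4a1*, *Cd3e* and *Hbb-bs* had no value in any library. In bulk RNA, fewer cells of a type and less RNA per cell cannot be told apart, and the part of these other cells in the IGF values was not tested.

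The start regions of 3 members are shown, since *Igfbp5* and *Igfbp2* are neighbors that differed in opposite directions and *Igf1* is the ligand that differed in the direction of *Igfbp5*. *Igfbp2* (chromosome 1, 72824503 to 72852474, plus strand) and *Igfbp5* (chromosome 1, 72857932 to 72874884, minus strand) point toward each other with 5457 bases and 0 annotated genes between them in GENCODE M21 on GRCm38. *Igf1* lies on chromosome 10, from 87858265 to 87937042 on the plus strand. The sequences are those of RefSeq on GRCm38.p6, 5′ to 3′, from 250 bases before to 50 bases after an annotated start. RefSeq entries of this kind were found for all 10 members. Capitals mark the GC box GGGCGG, the TATA motif TATAAA or the AP-1 motif TGACTCA, searched on both strands, and do not overlap here.
Igfbp5, chr1:72874816-72875115, minus strand: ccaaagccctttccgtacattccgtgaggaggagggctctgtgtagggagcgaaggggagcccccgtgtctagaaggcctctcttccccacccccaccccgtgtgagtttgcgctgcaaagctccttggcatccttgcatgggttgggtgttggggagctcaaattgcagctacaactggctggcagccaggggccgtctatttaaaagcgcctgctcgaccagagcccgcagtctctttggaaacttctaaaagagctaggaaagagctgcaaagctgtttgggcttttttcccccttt
Igfbp2, chr1:72824230-72824529, plus strand: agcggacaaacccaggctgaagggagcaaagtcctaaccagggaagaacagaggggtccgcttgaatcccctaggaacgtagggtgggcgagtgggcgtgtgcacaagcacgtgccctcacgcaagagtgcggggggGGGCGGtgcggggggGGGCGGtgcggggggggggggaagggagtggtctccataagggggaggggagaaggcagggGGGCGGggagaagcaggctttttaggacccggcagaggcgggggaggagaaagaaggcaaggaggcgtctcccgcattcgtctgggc
Igf1, chr10:87860861-87861160, plus strand: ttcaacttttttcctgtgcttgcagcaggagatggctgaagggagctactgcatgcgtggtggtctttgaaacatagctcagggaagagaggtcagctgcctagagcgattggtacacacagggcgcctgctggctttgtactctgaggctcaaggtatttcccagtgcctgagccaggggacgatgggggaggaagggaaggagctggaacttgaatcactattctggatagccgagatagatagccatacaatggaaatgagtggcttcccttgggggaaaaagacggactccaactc

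GGGCGG was found 3 times in the *Igfbp2* window shown and in 35.7% of all 32851 promoter windows of this length. None of the 3 motifs was found in the windows of *Igfbp5* and *Igf1*, which says only that these letters are not there. TATAAA was present in 13.6% and TGACTCA in 5.20% of all windows. The GC content was 67.0% for the *Igfbp2* window shown, 56.3% for *Igfbp5* and 52.3% for *Igf1*, beside a median of 52.7% over all windows. CpG dinucleotides numbered 18, 10 and 6, beside a median of 7. A second RefSeq start of *Igfbp2*, not shown (chromosome 1, 72825137 to 72825436), had no GGGCGG, 1 TGACTCA on the minus strand, a GC content of 57.3% and 14 CpG dinucleotides.

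The first comparison asked whether expression of the IGF genes differed between PDGFRα reporter+ and PDGFRα reporter- cells. Within both numbers, *Igf1*, *Igfbp3* and *Igfbp5* were higher in PDGFRα reporter+ cells, and *Igfbp2*, *Igfbp7*, *Igf1r* and *Igf2r* were lower. The remaining 3 members, *Igf2*, *Igfbp4* and *Igfbp6*, had opposite signs in numbers 2 and 3. The largest differences were those of *Igfbp5* (2.94-fold higher on the linear scale), *Igf1* (2.10-fold higher) and *Igfbp2* (2.08-fold lower). With limma (two-sided, p-values adjusted by Benjamini-Hochberg over 14415 genes measured in all 4 libraries), 0 of the 10 members and 0 genes of the whole table (0%) had an adjusted p under 0.05, and every member had an adjusted p of 1. At an unadjusted p under 0.05 there were 0 members, beside 131 genes of the table (0.909%). The share of all genes that were higher in PDGFRα reporter+ cells within both numbers was 22.1%, and 24.8% were lower within both, compared with 3 and 4 of the 10 members. Libraries of the 2 populations did not overlap for 1 member, beside 15.7% of all genes. This member was higher in PDGFRα reporter+ cells, and 0 members were lower without overlap, a pattern of 8.1% of all genes. With the number as a block, 0 members and 29 genes (0.201%) had an adjusted p under 0.05, and 4 members (*Igfbp5*, *Igf1*, *Igfbp3* and *Igfbp2*) and 913 genes (6.33%) an unadjusted p under 0.05. Median log2 differences were 0.14 over the members and -0.0035 over all genes tested. With 2 libraries per population, an exact two-sided permutation test of a single gene cannot give a p below 0.333, so that none was run. The labels do not say whether the libraries of a population came from separate cultures, and p-values measure the spread between these libraries.

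**Figure D1:**
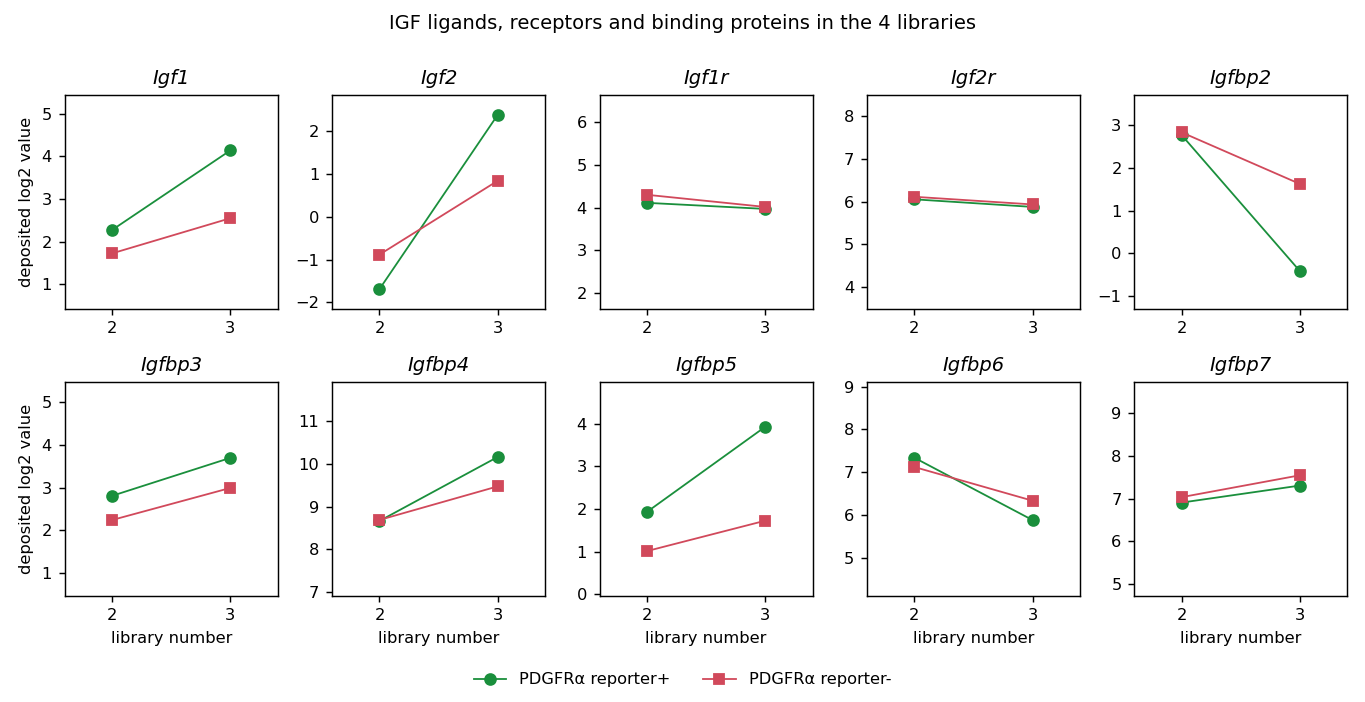
Deposited log2 value (y axis, each panel spanning the same range of log2 units) of the 10 IGF genes in the libraries numbered 2 and 3 (x axis), for PDGFRα reporter+ (circles) and PDGFRα reporter- (squares) cells, with lines joining libraries of the same population. *Igfbp5* is the member whose populations do not overlap, and the lines of *Igf2* and *Igfbp2* are steeper in PDGFRα reporter+ than in PDGFRα reporter- cells.

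Among the ligands, *Igf1* encodes the growth factor best known for its anabolic action on bone. Its log2 values were 2.28 (number 2) and 4.14 (number 3) in PDGFRα reporter+ and 1.73 and 2.55 in PDGFRα reporter- cells. PDGFRα reporter+ library 3 stood above the other 3 libraries, and PDGFRα reporter+ library 2 lay below PDGFRα reporter- library 3, so that the populations overlapped. The means were 3.21 ± 1.32 and 2.14 ± 0.58 (SD, n = 2 each). The log2 difference of 1.07 (SE 0.70, limma adjusted p = 1) was smaller than the SD among PDGFRα reporter+ libraries. Within the numbers it was 0.55 and 1.59. Without PDGFRα reporter+ library 3 it was 0.14, and without PDGFRα reporter+ library 2 it was 2.00. The populations of *Igf1* stood in the same direction as the summed level of the macrophage genes, and macrophages are a known source of IGF1. The sort kept cells negative for CD45. The 14 macrophage genes measured in every library were all higher on average in PDGFRα reporter+ cells. *Ptprc*, which encodes CD45 and was named after its values were seen, had a log2 difference of 0.93 and averaged -1.30. The part of macrophages in the *Igf1* values was not tested. The antisense gene *Igf1os*, which overlaps *Igf1*, had no value in any library.

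*Igf2* encodes the fetal growth factor, which is imprinted and expressed from the paternal allele in most tissues. It spanned the widest range of the members, with log2 values of -1.69 and 2.40 in PDGFRα reporter+ and of -0.88 and 0.85 in PDGFRα reporter- cells. Both the highest and the lowest library were PDGFRα reporter+. The means were 0.35 ± 2.89 (SD, n = 2) and -0.02 ± 1.22 (SD, n = 2), a log2 difference of 0.37 (SE 1.51) that was far smaller than the spread between libraries. It was -0.81 within number 2 and 1.55 within number 3. *Igf2* is on chromosome 7 from 142650766 to 142666816 on the minus strand, and *H19*, *Igf2os* and *Mir483* at this locus had no value in any library. The overlapping gene *Gm49394* on the same strand was not analysed here.

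The receptors were the members that varied least. *Igf1r*, the receptor that carries the growth signal, had log2 values of 4.11 and 3.97 in PDGFRα reporter+ and of 4.30 and 4.02 in PDGFRα reporter- cells, with a log2 difference of -0.12 (SE 0.17). *Igf2r*, the scavenging receptor, had 6.05 and 5.87 compared with 6.11 and 5.93, with a log2 difference of -0.06 (SE 0.17). For both genes the whole range over 4 libraries was below that of every binding protein, at 0.33 for *Igf1r* and 0.24 for *Igf2r*. The differences within the numbers were -0.19 and -0.05 for *Igf1r* and -0.06 and -0.06 for *Igf2r*. The antisense gene *Airn*, which overlaps *Igf2r* on chromosome 17, had no value in any library.

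Of the 6 binding proteins, *Igfbp5* differed most. It encodes a matrix-bound binding protein that is abundant in bone. Its log2 values were 1.93 and 3.93 in PDGFRα reporter+ and 1.01 and 1.73 in PDGFRα reporter- cells, so that the lower PDGFRα reporter+ library still exceeded the higher PDGFRα reporter- library. The same held for 7.59% of all genes. The means were 2.93 ± 1.41 (SD, n = 2) and 1.37 ± 0.50 (SD, n = 2). The log2 difference of 1.56 (SE 0.73, limma adjusted p = 1) exceeded the SD in either population, and among the 10224 genes whose log2 values averaged 0 or more, its absolute size was at percentile 99.9. It was 0.92 within number 2 and 2.20 within number 3. Leaving out each library in turn gave 0.56 to 2.56, with the lowest value without PDGFRα reporter+ library 3.

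*Igfbp2*, whose product binds IGF2 with preference and is a growth regulator of many tissues, differed in the opposite direction. Its log2 values were 2.77 and -0.42 in PDGFRα reporter+ and 2.83 and 1.62 in PDGFRα reporter- cells. The libraries numbered 2 were nearly equal, and PDGFRα reporter+ library 3 stood far below the other 3. The means were 1.17 ± 2.26 (SD, n = 2) and 2.23 ± 0.86 (SD, n = 2), a log2 difference of -1.05 (SE 1.15, limma adjusted p = 1) that was smaller than the SD among PDGFRα reporter+ libraries. It was -0.06 within number 2 and -2.04 within number 3, and 0.54 without PDGFRα reporter+ library 3. With *Igfbp5* and *Igfbp2*, genes that end 5457 bases apart thus stood on opposite sides, and both were furthest apart between populations in number 3.

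*Igfbp3*, the main carrier of IGFs in blood, had similar differences within both numbers. Its log2 values were 2.81 and 3.70 in PDGFRα reporter+ and 2.24 and 2.99 in PDGFRα reporter- cells. The log2 difference was 0.64 (SE 0.42, limma adjusted p = 1), with 0.57 and 0.70 within the numbers. It was about as large as the SD in each population (0.63 and 0.53), and leaving out each library in turn gave 0.19 to 1.08, the lowest value when PDGFRα reporter+ library 3 was dropped. PDGFRα reporter+ library 2 lay below PDGFRα reporter- library 3, so that the populations overlapped. *Igfbp3* has *Igfbp1* as a neighbor on chromosome 11, 3539 bases away and also tail to tail, and *Igfbp1* had no value in any library.

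*Igfbp4* and *Igfbp6* had opposite signs within the numbers, and the difference of *Igfbp7* was small. *Igfbp4*, an inhibitory binding protein that pappalysin cuts, had log2 values of 8.67 and 10.17 in PDGFRα reporter+ and of 8.69 and 9.48 in PDGFRα reporter- cells. Its log2 difference of 0.33 (SE 0.63) came from number 3 (0.69), as number 2 gave -0.02. *Igfbp6*, which prefers IGF2, had values of 7.34 and 5.88 compared with 7.12 and 6.33. The log2 difference of *Igfbp6* was -0.12 (SE 0.58), with 0.22 and -0.45 within the numbers. *Igfbp7*, a related secreted protein that binds IGFs weakly and is known from vascular basement membrane, had values of 6.91 and 7.31 compared with 7.04 and 7.55. Within both numbers the difference was below 0 (-0.13 and -0.24), the direction of the endothelial sum. The log2 difference of *Igfbp7* was -0.18 (SE 0.28) and smaller than the SD in either population. *Igfbp7* overlaps the end of *Polr2b* on the other strand (3.89 to 3.98 in the 4 libraries), and whether the counting used strand is not given in the sources used here.

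**Figure D2:**
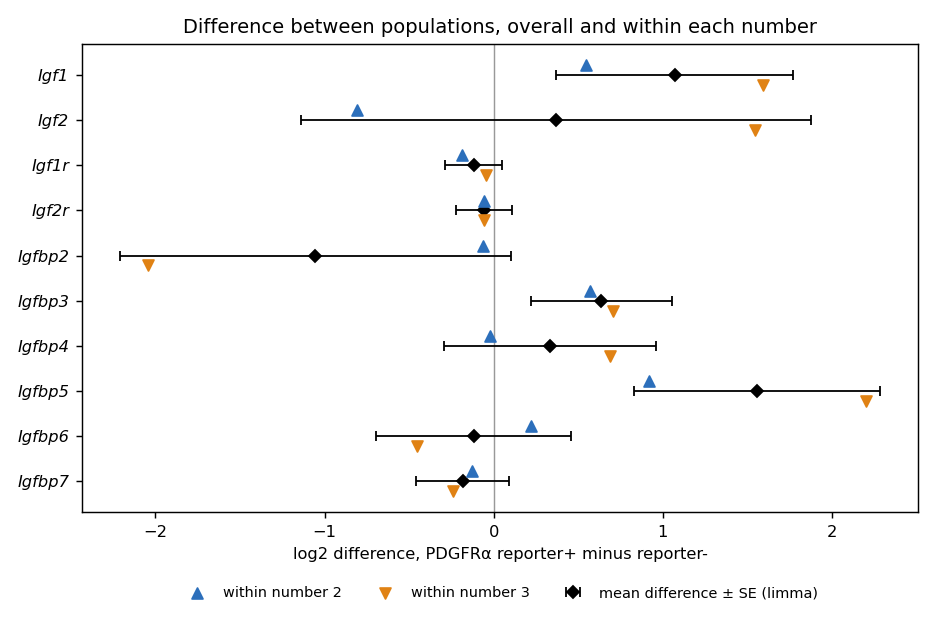
Log2 difference between PDGFRα reporter+ and PDGFRα reporter- cells (x axis) for each IGF gene (y axis), as the mean over both numbers with its SE from limma (diamonds) and within number 2 and number 3 (triangles). *Igf1*, *Igfbp3* and *Igfbp5* lie above 0 in both numbers, and the differences of *Igf2*, *Igfbp2* and *Igfbp5* are far apart between numbers.

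The second comparison asked how the members varied between libraries of the same population, from number 2 to number 3. In 9 of the 10 members this difference was larger in absolute size than the difference between populations, as in 75.7% of all genes tested, and *Igfbp5* was the exception. *Igf2* (7.51-fold), *Igfbp5* (2.56-fold), *Igf1* (2.54-fold), *Igfbp4* (2.21-fold), *Igfbp3* (1.77-fold) and *Igfbp7* (1.37-fold) were higher in number 3, and *Igfbp2* (4.59-fold) and *Igfbp6* (2.18-fold) were lower. In limma with a term for the population, these 8 of the 10 members had an adjusted p under 0.05, compared with 3065 genes of the table (21.3%). Higher in number 3 were 6 members, beside 11.5% of all genes, and lower were 2, beside 9.79%. This model leaves 1 residual degree of freedom per gene and borrows the spread from other genes of the same level. When the spread was not tied to the level, 0 members and 0 genes had an adjusted p under 0.05, with 0.0966 to 0.478 for the members, whereas 8 members and 3909 genes had an unadjusted p under 0.05.

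The largest of these differences was that of *Igf2*, with a log2 difference of 2.91 (SE 0.46, limma adjusted p = 0.0026) from means of -1.29 in number 2 and 1.62 in number 3. Split by population, it was 4.09 for PDGFRα reporter+ and 1.73 for PDGFRα reporter-. *Igfbp2* followed with -2.20 (SE 0.37, limma adjusted p = 0.0036), made up of -3.19 and -1.21. *Igf1* had 1.35 (SE 0.22, limma adjusted p = 0.0031), made up of 1.87 and 0.82. The direction was the same in both populations for all 10 members. Both libraries numbered 3 lay above both numbered 2 for 5 members and below them for 4, compared with 36.4% and 28.8% of all genes. The numbers thus did not overlap for 9 members, beside 65.2% of all genes. The exception was *Igfbp5*, whose PDGFRα reporter+ library 2 lay above PDGFRα reporter- library 3.

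Among the other binding proteins, *Igfbp4* was higher in number 3 by 1.14 (SE 0.22, limma adjusted p = 0.0065) on the log2 scale and *Igfbp6* lower, at -1.13 (SE 0.17, limma adjusted p = 0.0020). *Igfbp3* had a log2 difference of 0.82 (SE 0.13, limma adjusted p = 0.0027) and *Igfbp5* of 1.35 (SE 0.26, limma adjusted p = 0.0070). The difference of *Igfbp5* was 2.00 within PDGFRα reporter+ and 0.71 within PDGFRα reporter- cells. *Igfbp7* was near the threshold, with 0.46 (SE 0.13, limma adjusted p = 0.041). The receptors did not pass, with -0.21 (SE 0.12, limma adjusted p = 0.24) for *Igf1r* and -0.18 (SE 0.12, limma adjusted p = 0.32) for *Igf2r*. In 7 of the 10 members the number difference was wider in PDGFRα reporter+ than in PDGFRα reporter- cells, which held for 51.4% of all genes. With 4 libraries an interaction of population and number leaves no residual degree of freedom and was not tested. The macrophage sum was also higher in number 3 in both populations, and so were the endothelial and the smooth muscle and pericyte sums. In the fit with a population term, 7 of the 14 macrophage genes measured in every library passed, all higher in number 3. Of the 8 smooth muscle and pericyte genes, 4 passed as higher and 1 as lower. Of the 10 endothelial genes 2 passed, with *Tek* higher (3.32) and *Erg* lower (-3.03). Among all genes the share that passed was 21.3%. The part of these other cells in the differences of the IGF genes was not tested.

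**Figure D3:**
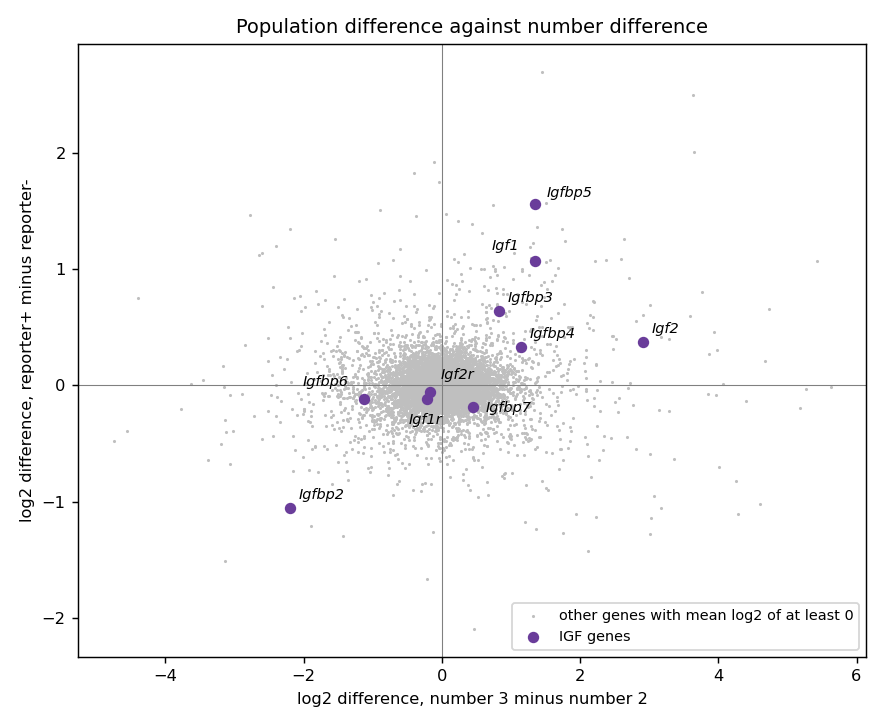
Log2 difference between PDGFRα reporter+ and PDGFRα reporter- cells (y axis) against the log2 difference between numbers 3 and 2 (x axis), for the 10 IGF genes (large points) and all other genes averaging 0 or more on the log2 scale (small points). *Igfbp5* lies at 1.56 and 1.35, *Igfbp2* at -1.05 and -2.20 and *Igf2* at 0.37 and 2.91, whereas both receptors lie close to 0 on both axes.

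The other genes of the pathway were a list of 49, of which 42 were measured in every library. Between populations, 0 of the 42 had an adjusted p under 0.05, 21 differences were above 0 and 21 below, and the median log2 difference was -0.0049. Populations did not overlap for 6 of them, beside 15.7% of all genes. *Stc1*, which encodes a stanniocalcin that inhibits pappalysin, was the only one of these that differed by 0.5 or more on the log2 scale and averaged 0 or more. Its log2 values were 2.36 and 2.40 in PDGFRα reporter+ and 2.02 and 1.17 in PDGFRα reporter- cells, a log2 difference of 0.79 (SE 0.33, limma adjusted p = 1). The other 5, named after their values were seen, had smaller differences, namely *Ptpn1* (0.21) above and *Adam12* (-0.36), *Pdpk1* (-0.11), *Tsc2* (-0.11) and *Foxo3* (-0.07) below. The following genes did not meet the rule for naming and are given as examples. The growth hormone arm, which drives *Igf1* in liver, showed small mean differences. *Ghr*, the growth hormone receptor, was at 4.22 and 3.98 compared with 4.09 and 4.07, and all 5 genes of this arm had mean log2 differences between 0.02 and 0.18. For 4 of the 5 the sign was opposite within the numbers, as for *Stat5a*, with 0.48 and -0.42. The insulin receptor gene *Insr* was at 3.00 and 3.26 compared with 2.98 and 3.04, and *Ins2* had no value.

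Between numbers, 17 of the 42 pathway genes had an adjusted p under 0.05 in limma with a population term, 11 higher and 6 lower in number 3, compared with 21.3% of all genes. As for the members, these calls rest on a spread tied to the level. Of the 6 genes for proteases of the binding proteins and their inhibitors, 3 passed, 2 of them higher and 1 lower in number 3. *Pappa*, encoding pappalysin, had log2 values of 1.13 and 2.85 in PDGFRα reporter+ and of 1.42 and 2.12 in PDGFRα reporter- cells, and was higher in number 3 by 1.21 (SE 0.23, limma adjusted p = 0.0067). Its paralog *Pappa2* had -2.99 and 1.35 compared with -3.77 and -1.41, a log2 difference between numbers of 3.35 (SE 0.48, limma adjusted p = 0.0017). *Htra1*, a secreted serine protease, was lower in number 3 at -0.86 (SE 0.13, limma adjusted p = 0.0018).

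In the intracellular branch, the docking proteins *Irs1* and *Irs2* were higher in number 3, by 0.62 and 1.03 on the log2 scale. So were the kinases *Akt1* (0.62) and *Rps6kb1* (0.59), the regulatory subunit *Pik3r1* (0.43) and the adaptor *Grb10* (0.39), a brake on the receptor. The adaptor *Grb14* was lower in number 3, at -1.50. Of the 3 genes for proteins that bind *Igf2* mRNA, *Igf2bp3* was higher in number 3 by 1.52, from -2.43 to -0.60 in PDGFRα reporter+ and from -2.11 to -0.89 in PDGFRα reporter- cells. Secreted proteins that carry a domain of the binding protein type moved in both directions. *Esm1*, an endothelial proteoglycan, was higher by 3.84 and *Ctgf* by 1.19. *Wisp2* (-1.50), *Htra3* (-1.04), *Nov* (-0.67) and *Cyr61* (-0.42) were lower in number 3. *Wisp2* had the largest population difference of this group, at 7.95 and 6.68 in PDGFRα reporter+ and 7.51 and 5.78 in PDGFRα reporter- cells, with a log2 difference of 0.67 (SE 0.74) and populations that overlapped.

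**Figure D4:**
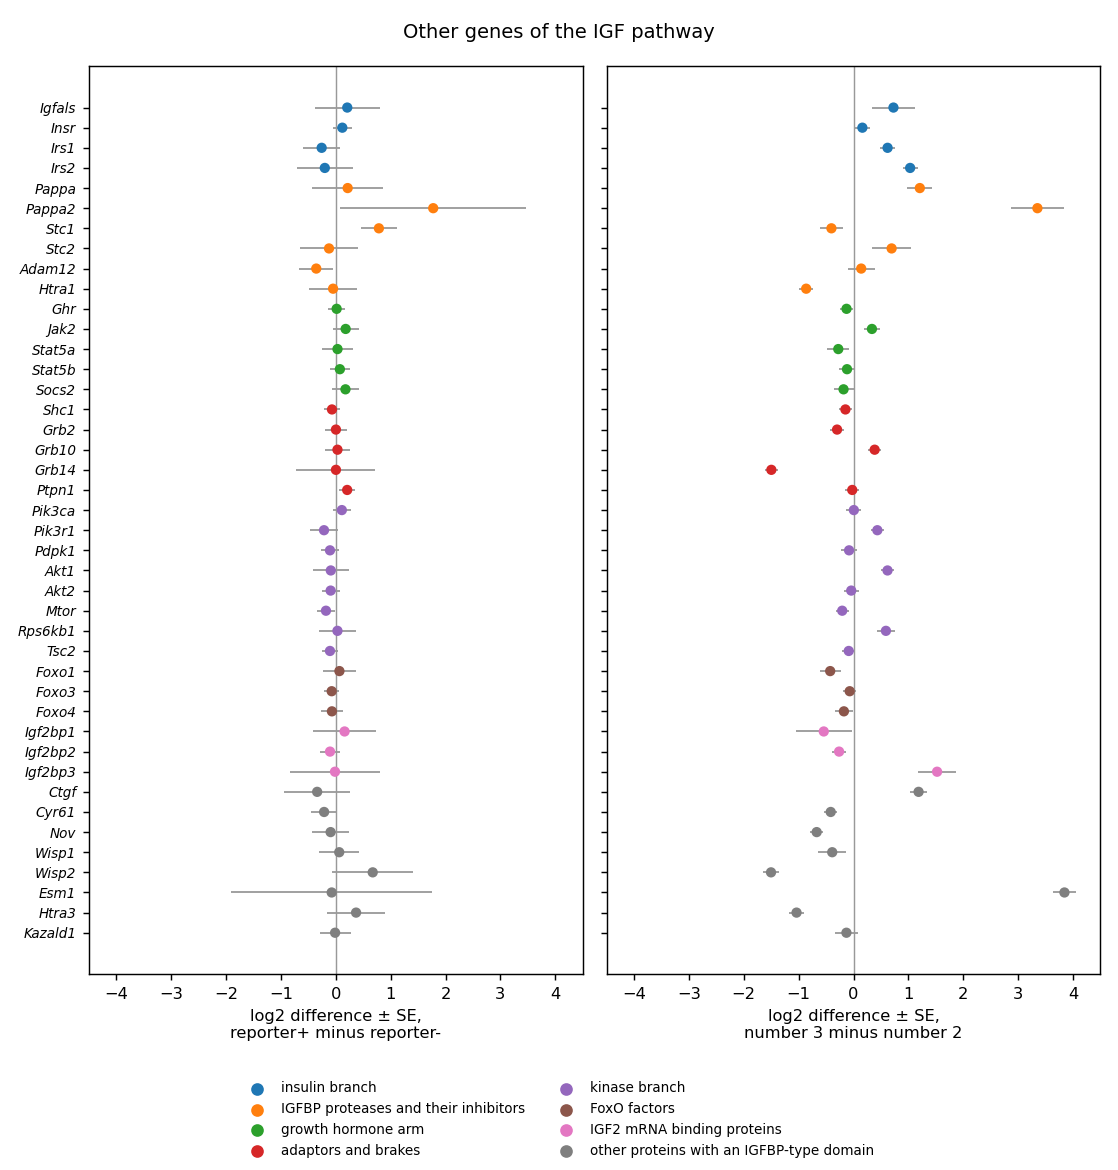
Log2 difference with SE from limma (x axes) for the 42 other pathway genes measured in every library (y axis), between populations (left) and between numbers 3 and 2 (right), colored by branch. Differences between populations lie close to 0 except for genes such as *Pappa2* (1.78, SE 1.70) and *Stc1* (0.79), whereas those between numbers reach 3.84 for *Esm1* and -1.50 for *Wisp2* and *Grb14*.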

How the data were processed

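Total RNA of 2 sorted periosteal cell populations, in 4 libraries, was sequenced by the authors in a stranded, paired-end format on an Illumina NextSeq. The submitters' processing notes name bcl2fastq 2.17.1.14, Partek 7.0 and the build GRCm38.p6. The aligner, counting, annotation and filters are not given in the sources used here. The values deposited by the authors are log2 signals after quantile normalization, blank where there was no signal, with the same lowest (-10.07) and highest (11.73) value in each library. The 14415 genes measured in every library were fitted with limma 3.58.1 in R 4.3.3 (lmFit, eBayes with trend=TRUE, which ties the spread to the level, two-sided, Benjamini-Hochberg, threshold 0.05), for the population alone and for the number with a population term. The fit was tested on simulated data. Alternatives were the library number as a block, no variance trend, a filter at a mean log2 of at least 0, genes with blanks, centering on the median, log2(value + 1), and each library left out. Members and gene lists were chosen with earlier results of these data known. Named genes are the members, and pathway genes past the threshold or with populations that do not overlap, a log2 difference of 0.5 or more in either direction and an average of 0 or more. Others are said where named to be outside this rule or chosen after their values were seen, or are named as having no value. Summaries used Python 3.11.15, numpy 2.4.6, pandas 2.3.3 and matplotlib 3.10.9. Positions are from GENCODE M21. The result of 1 further pathway gene is not reported here.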

Additional observations from a re-analysis of the deposited data

How the results depend on the processing

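All 12 changes of sign among the 110 alternative values of the population differences came from leaving out 1 library, which also unbalances the numbers. Left out in turn, the log2 difference ranged from -1.67 to 2.41 for *Igf2*, from -0.26 to 0.025 for *Igf1r*, from -0.15 to 0.031 for *Igf2r*, from -2.65 to 0.54 for *Igfbp2*, from -0.42 to 1.08 for *Igfbp4*, from -0.85 to 0.61 for *Igfbp6* and from -0.44 to 0.072 for *Igfbp7*. *Igf1*, *Igfbp3* and *Igfbp5* stayed above 0. With the number as a replicate block, 29 genes had an adjusted p under 0.05 between populations, none of them a member, with 0.064 for *Igfbp5* and 0.14 for *Igf1* and *Igfbp3*. PDGFRα reporter+ and reporter- libraries sharing a number deviated together (correlation 0.681 across genes, which are not independent replicates), but the labels do not say that the numbers pair them. With the block and no variance trend, 0 genes passed, and 941 had an unadjusted p under 0.05. Between numbers, 0 genes passed without a variance trend and 1825 with log2(value + 1). Members passing between numbers were then 0 and 4, and they were 3 without the population term (2208 genes), 7 after centering (3135 genes) and 8 with the filter on low values (2232 genes). The 4 with log2(value + 1) were *Igfbp2*, *Igfbp3*, *Igfbp4* and *Igfbp6*. There the difference of *Igf2* fell to 1.56 (limma adjusted p = 0.055), and *Igf1*, *Igfbp5* and *Igfbp7* did not pass either. The 3 without the population term were *Igf2*, *Igfbp4* and *Igfbp6*. With 1 library left out the number model has no residual degree of freedom, so that no count was made. After centering, 1 pathway gene instead of 4 lay below in both PDGFRα reporter+ libraries. The cause of these changes was not tested.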

Other observations

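The genes whose 4 values, centered on their own mean, lay closest to those of *Igf1* were *Syndig1*, *Clca3a2* and *Hsd11b1*, at root mean square distances of 0.18, 0.21 and 0.22 log2 units among 10223 genes that averaged 0 or more. *Hsd11b1*, encoding an enzyme that regenerates active glucocorticoid, had log2 values of 2.47 and 4.22 in PDGFRα reporter+ and of 2.11 and 3.22 in PDGFRα reporter- cells. Closest to *Igf2* were *Dio2*, *Adra2a* and *Cd24a*, at 0.23, 0.41 and 0.44. *Dio2*, encoding the deiodinase that activates thyroid hormone, had 2.56 and 6.42 compared with 2.72 and 4.88. With 4 libraries, these are descriptions of the libraries.

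*Grb14* combined nearly equal populations with a large gap between numbers. Its log2 values were 4.70 and 3.20 in PDGFRα reporter+ and 4.69 and 3.20 in PDGFRα reporter- cells. The populations differed by 0.0023 and 0.0037 within the numbers, and the log2 difference between numbers 3 and 2 was -1.50. *Esm1* showed a wider gap of 3.84 between numbers, with -0.41 and 3.08 compared with -0.69 and 3.51.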
